A study of Mus musculus with 8 samples.

Results

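The chromatin and accessory genes of pluripotency described here are 10 genes, Dppa2, Dppa4, Dppa5a, Nr0b1, Utf1, Lin28a, Sall4, Fbxo15, Tcl1 and Nr5a2. They were taken by name, and the platform annotation paired 24 probes of the array with them. Of these, 21 probes were detected above the negative controls on at least 2 of the 8 arrays, and 9 of the 10 genes could be tested among the 10930 genes tested in all. Nr0b1, with 1 probe, was the gene left out.

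Expression was measured on Illumina BeadChips in E14 cells, a mouse embryonic stem cell line that leukaemia inhibitory factor (LIF) keeps undifferentiated in serum. A short hairpin RNA (shRNA) against GFP, a jellyfish protein, served as the control, and 3 separate hairpins targeted Dnmt3l, an inactive relative of the DNA methyltransferases that assists Dnmt3a and Dnmt3b. The 4 groups are named shGFP, shDnmt3L1, shDnmt3L2 and shDnmt3L3, and each has 2 arrays. The series title places the work in how DNA methylation that depends on Dnmt3L bears on differentiation toward germ cells. All groups shared the E14 background, medium with 15% serum and 1500 U/ml LIF, transfection of a hairpin and 3 days of puromycin, so the control cells carried a hairpin and the selection too. The 2 arrays of each group are duplicates in the labels, which do not say that the cultures were separate, so every p-value below measures only the spread between such duplicates, which may be technical.

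Embryonic stem cells rest on a small core of transcription factors, and around it stand proteins that shape chromatin, RNA and signalling. DPPA2 and DPPA4 are related DNA-binding proteins that act as a pair, keep the chromatin of developmental and germline promoters open and, in mouse stem cells, are needed for the genes of the two-cell-like state. UTF1 binds chromatin and restrains bivalent genes, SALL4 is a zinc finger protein that recruits the NuRD deacetylase complex, and LIN28A binds the precursor of the microRNA let-7 and blocks its maturation. DPPA5A binds RNA, FBXO15 is an F-box protein of a ubiquitin ligase, TCL1 is a coactivator of the kinase AKT, and NR5A2 and NR0B1 are nuclear receptors that bear on Pou5f1 and Nanog. Several of these genes are classic readouts of reprogramming and of exit from pluripotency, and some, Dppa2 and Dppa4 among them, are silenced with DNA methylation in differentiated cells.

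Because the study is about DNA methylation, the CpG content of the promoters gives context for the values that follow. Of the 10 genes, 5 matched an entry in the RefSeq promoter table for GRCm38.p6 (Nr0b1, Utf1, Lin28a, Tcl1 and Nr5a2), and the 250 bases upstream of the start are shown for the 3 of them that changed with shDnmt3L2 or shDnmt3L3. The Utf1 sequence is chr7:139943606-139943855 on the plus strand, the Lin28a sequence chr4:134018817-134019066 on the minus strand and the Tcl1 sequence chr12:105222738-105222987 on the minus strand. Each is printed 5′ to 3′ along its gene, with every CG in capitals.
Utf1: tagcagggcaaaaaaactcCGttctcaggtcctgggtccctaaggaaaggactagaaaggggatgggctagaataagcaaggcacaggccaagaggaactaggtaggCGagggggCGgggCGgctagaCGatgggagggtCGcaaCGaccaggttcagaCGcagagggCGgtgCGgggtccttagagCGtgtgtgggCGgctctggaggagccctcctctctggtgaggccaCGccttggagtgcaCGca
Lin28a: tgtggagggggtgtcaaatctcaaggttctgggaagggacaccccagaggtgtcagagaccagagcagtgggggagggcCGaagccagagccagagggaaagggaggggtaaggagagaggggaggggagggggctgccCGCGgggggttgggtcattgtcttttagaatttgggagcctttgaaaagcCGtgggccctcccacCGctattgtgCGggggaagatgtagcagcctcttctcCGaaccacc
Tcl1: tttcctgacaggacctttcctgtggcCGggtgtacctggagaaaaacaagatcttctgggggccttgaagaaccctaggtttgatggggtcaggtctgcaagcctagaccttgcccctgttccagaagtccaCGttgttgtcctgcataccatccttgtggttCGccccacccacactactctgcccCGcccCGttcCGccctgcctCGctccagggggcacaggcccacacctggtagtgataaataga
The Utf1 window holds 14 CG, a number reached by 29.4% of the 32851 promoter windows in the table, and the Lin28a and Tcl1 windows hold 7 each, reached by 46.3%, against a median of 6 over the table. Of the windows not printed, those of Nr5a2, which changed with shDnmt3L1 alone, hold 6 and 2 CG, reached by 50.4% and 81.2%. The window of the untested Nr0b1 holds 11, reached by 35.6%. Motifs were searched on both strands, and none of them overlaps another. The octamer bound by POU factors, ATTTGCAT, occurs in 1.6% of all windows. The SOX motif AACAATG occurs in 3.29%. The NR5A motif AAGGTCA occurs in 4.08%. The E-box CACGTG occurs in 6.02%. None of them was in the 6 windows of the 5 genes, which says only that these letters are absent there. No methylation was measured on these arrays.

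The arrays were alike in depth of signal, with a median intensity of 96.1 to 104 and 18111 to 19241 of 45281 probes detected (40% to 42.5%). Dnmt3l checks the labels: it was lower on all 6 hairpin arrays than on both shGFP arrays, and shDnmt3L1, shDnmt3L2 and shDnmt3L3 left 36.8%, 45.4% and 15.8% of its shGFP level. The stem cell markers Pou5f1, Sox2, Nanog and Zfp42 were detected on all arrays. Levels below are background-corrected, quantile-normalized log2 intensities. A gene is said to have changed, or to be called, when limma's p-value, adjusted by Benjamini-Hochberg over all 10930 genes, is under 0.05. Every comparison with shGFP uses the same 2 shGFP arrays, so these comparisons are not independent of each other, and levels are not compared between probes or genes.

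With the 3 hairpin groups averaged and set against shGFP, Dppa2 fell, while Tcl1, Dppa4 and Fbxo15 rose. Their log2 changes were -0.71 ± 0.11 (SE) for Dppa2 (limma, adjusted p = 0.000646), 0.43 ± 0.07 for Tcl1 (adjusted p = 0.000941), 0.30 ± 0.07 for Dppa4 (adjusted p = 0.00488) and 0.17 ± 0.06 for Fbxo15 (adjusted p = 0.0372), although with arrays scaled by their median instead Dppa4 stood at -0.01 and Fbxo15 at -0.12, neither called. Lin28a, Sall4, Dppa5a, Nr5a2 and Utf1 did not pass the test in this average, with values between -0.10 and 0.17. These 4 calls among 9 genes, 3 higher and 1 lower, compare with 52.2% of all genes called, 27.5% higher and 24.7% lower, so the share of calls is close to the background. The median change of the 9 genes was 0.13, against 0.01 over all genes. A fit that treats the arrays of a group as correlated (correlation 0.691) called none of the 9 genes and 323 of all 10930 genes, with adjusted p = 0.224 for Dppa2, 0.201 for Tcl1, 0.377 for Dppa4, 0.652 for Fbxo15 and 0.052 for Dnmt3l itself. In RNA from whole cultures, fewer cells of a type and less RNA per cell cannot be told apart.

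Dppa2 was the member with the largest change. Its normalized log2 level was 8.39 and 8.58 on the shGFP arrays, 8.12 and 7.84 under shDnmt3L1, 8.17 and 7.96 under shDnmt3L2, and 7.20 and 7.40 under shDnmt3L3. All 6 hairpin arrays lay below both shGFP arrays, and the shDnmt3L3 arrays lay below the other hairpin arrays without overlap. The log2 change was -0.51 ± 0.13 (SE) with shDnmt3L1 (limma, adjusted p = 0.0109), -0.42 ± 0.13 with shDnmt3L2 (adjusted p = 0.0294) and -1.19 ± 0.13 with shDnmt3L3 (adjusted p = 0.000113), which left 70.2%, 74.6% and 43.8% of the shGFP level. The order of the hairpins in Dppa2 puts shDnmt3L3 lowest, as it does in Dnmt3l. The calls with shDnmt3L1 and shDnmt3L2 each rest on single arrays: without shGFP replicate 2 their adjusted p were 0.067 and 0.149, and without replicate 2 of the hairpin group itself 0.0802 and 0.166. A second Dppa2 probe was dim, detected on 3 of 8 arrays, and gave -0.15 ± 0.13 over the 3 hairpins, not called (adjusted p = 0.381), so the fall of Dppa2 rests on 1 probe.

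Dppa4, the partner of Dppa2, went the other way on its brightest probe. Its level was 12.04 and 11.96 under shGFP, 12.45 and 12.44 under shDnmt3L1, 12.28 and 12.42 under shDnmt3L2, and 12.12 and 12.08 under shDnmt3L3. Every hairpin array was above both shGFP arrays, with shDnmt3L3 nearest to them. Dppa4 rose by 0.45 ± 0.08 with shDnmt3L1 (limma, adjusted p = 0.00209) and by 0.35 ± 0.08 with shDnmt3L2 (adjusted p = 0.00872), and its change of 0.10 ± 0.08 with shDnmt3L3 was not called (adjusted p = 0.328). Under median scaling the same values were 0.12, 0.06 and -0.20, none of them called. The call with shDnmt3L2 was lost without shGFP replicate 2 or shDnmt3L2 replicate 2 (adjusted p = 0.051 and 0.0586). Set side by side on single arrays, Dppa2 stood between -0.31 and -1.29 from its shGFP mean on the hairpin arrays, and Dppa4 between 0.08 and 0.45.

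**Figure D1:**
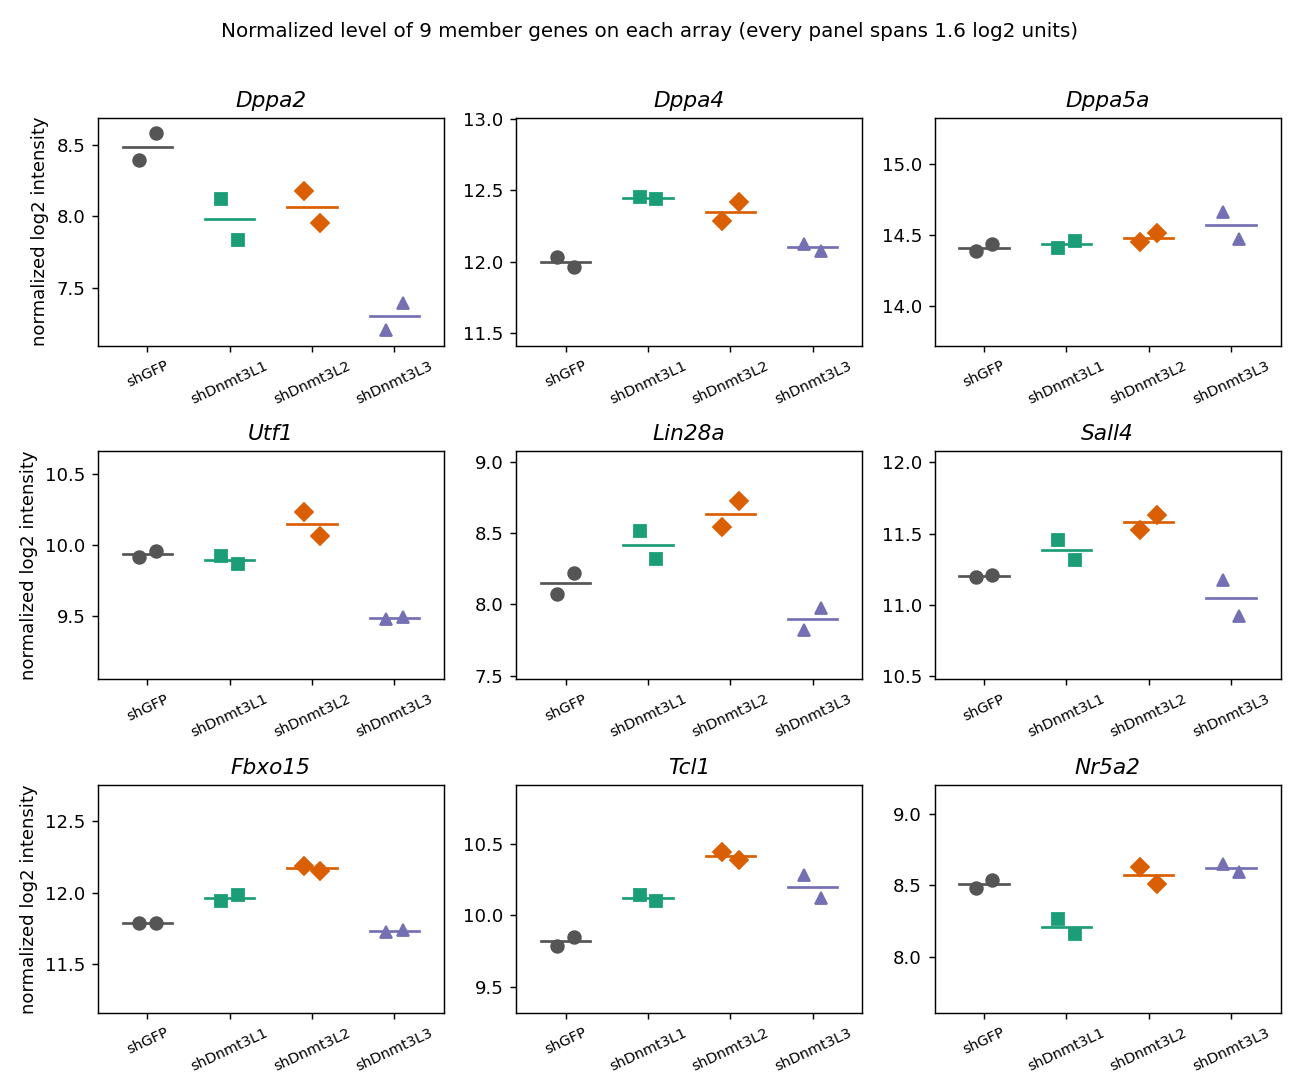
Normalized log2 intensity (vertical axis) of the 9 tested genes by hairpin group (horizontal axis), 1 point per array and a bar at each group's mean, with every panel spanning 1.6 log2 units around its own centre. Dppa2 fell from 8.39 and 8.58 with shGFP to 7.20 and 7.40 with shDnmt3L3, Tcl1 lay above shGFP on all hairpin arrays, and Dppa5a lay between 14.38 and 14.66 throughout.

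The 4 Dppa4 probes disagreed. In a fit on all 17301 detected probes with 1 gene, 3 of them rose over the hairpins, by 0.30 ± 0.07 (SE) on the brightest, 0.39 ± 0.06 on the second and 0.59 ± 0.13 on the dimmest (limma, adjusted p = 0.00705, 0.00118 and 0.00636). The fourth gave -0.11 ± 0.07, not called (adjusted p = 0.237), and fell by 0.26 ± 0.08 with shDnmt3L3 (adjusted p = 0.031). On that probe the levels were 8.62 and 8.51 under shGFP, 8.60 and 8.55 under shDnmt3L1, 8.47 and 8.53 under shDnmt3L2, and 8.27 and 8.34 under shDnmt3L3. The direction of Dppa4 with shDnmt3L3 therefore differs between probes, since the second and dimmest probes rose there by 0.26 ± 0.08 and 0.56 ± 0.16 (adjusted p = 0.0234 and 0.0216). The platform annotation lists the same RefSeq transcript for all 4 probes, and why they disagree was not tested.

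Dppa5a, an RNA-binding protein abundant in stem cells, was called in none of the comparisons under the main settings, and with shDnmt3L3 alone it was called without background correction (0.16, adjusted p = 0.037) and with an intensity trend and robust prior (0.16, adjusted p = 0.0372). Its log2 level was 14.38 and 14.44 under shGFP, 14.41 and 14.46 under shDnmt3L1, 14.45 and 14.51 under shDnmt3L2, and 14.66 and 14.47 under shDnmt3L3. Each group overlapped the next in level, and its changes of 0.02, 0.07 and 0.16 (SE 0.09 each) were not called (limma, adjusted p = 0.838, 0.542 and 0.161). The interval of the average change over the hairpins ran from -0.08 to 0.24 (95%). Both Dppa5a probes were among the brightest on the array, at 71.9% to 93.4% of the brightest signal of their array, and whether that brightness limits the change they can show was not tested.

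Under the main settings, Utf1 changed with shDnmt3L3 alone among the single hairpins tested. Its level was 9.92 and 9.96 under shGFP, 9.92 and 9.87 under shDnmt3L1, 10.24 and 10.07 under shDnmt3L2, and 9.48 and 9.49 under shDnmt3L3. The shDnmt3L3 arrays were the lowest and the shDnmt3L2 arrays the highest, and only shGFP and shDnmt3L1 overlapped. Utf1 fell by 0.45 ± 0.08 with shDnmt3L3 (limma, adjusted p = 0.00186), to 73.1% of the shGFP level, and its changes of -0.05 ± 0.08 with shDnmt3L1 and 0.21 ± 0.08 with shDnmt3L2 were not called (adjusted p = 0.672 and 0.0745). Utf1 has 1 probe on the array.

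Lin28a, the block on let-7 maturation, was higher with shDnmt3L2. Its level was 8.08 and 8.22 under shGFP, 8.52 and 8.32 under shDnmt3L1, 8.54 and 8.73 under shDnmt3L2, and 7.82 and 7.97 under shDnmt3L3. Both shDnmt3L2 arrays were above, and both shDnmt3L3 arrays below, the shGFP arrays. Lin28a rose by 0.48 ± 0.11 with shDnmt3L2 (limma, adjusted p = 0.0081), whereas 0.27 ± 0.11 with shDnmt3L1 and -0.25 ± 0.11 with shDnmt3L3 missed the threshold (adjusted p = 0.0716 and 0.0811). In the fit on single probes, 2 further Lin28a probes rose with shDnmt3L2, by 0.53 ± 0.12 and 0.34 ± 0.08 (adjusted p = 0.0101 and 0.0132), and a dim one, detected on 2 arrays, gave -0.19 ± 0.11 (adjusted p = 0.215). The Lin28a call with shDnmt3L2 depended on single arrays, with adjusted p = 0.0503 without shGFP replicate 1 and 0.0576 without shDnmt3L2 replicate 2.

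Sall4, the zinc finger protein of the NuRD connection, followed a like course at smaller size. Its level was 11.19 and 11.21 under shGFP, 11.46 and 11.31 under shDnmt3L1, 11.52 and 11.63 under shDnmt3L2, and 11.17 and 10.92 under shDnmt3L3. The 4 arrays of shDnmt3L1 and shDnmt3L2 were above shGFP and the shDnmt3L3 arrays below it. Sall4 rose by 0.38 ± 0.10 with shDnmt3L2 (limma, adjusted p = 0.0186), but under median scaling this was 0.16 and no longer called (adjusted p = 0.239), while the value of -0.16 ± 0.10 with shDnmt3L3 (adjusted p = 0.229) became -0.37 and was called (adjusted p = 0.0134). Its value with shDnmt3L1 was 0.18 ± 0.10, not called (adjusted p = 0.175), and turned to -0.12 under median scaling. A second Sall4 probe was called with shDnmt3L3, at -0.37 ± 0.11 (adjusted p = 0.0232), and not with shDnmt3L2, at 0.15 ± 0.11 (adjusted p = 0.331), and the last was detected on no array. The Sall4 call with shDnmt3L2 was lost without shGFP replicate 1 or 2 or shDnmt3L2 replicate 2 (adjusted p = 0.0696, 0.0611 and 0.101).

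Fbxo15, an F-box protein and early reprogramming reporter, was called with shDnmt3L2. Its level was 11.78 on both shGFP arrays, 11.94 and 11.98 under shDnmt3L1, 12.19 and 12.15 under shDnmt3L2, and 11.72 and 11.74 under shDnmt3L3. No group overlapped another. Fbxo15 rose by 0.39 ± 0.07 with shDnmt3L2 (limma, adjusted p = 0.00341), and its values of 0.18 ± 0.07 with shDnmt3L1 and -0.05 ± 0.07 with shDnmt3L3 were not called (adjusted p = 0.0714 and 0.555). Under median scaling the 3 values were 0.10 (shDnmt3L2), -0.15 (shDnmt3L1) and -0.33 (shDnmt3L3), and only the last was called (adjusted p = 0.0049). The second Fbxo15 probe rose by 0.38 ± 0.10 with shDnmt3L2 (adjusted p = 0.017). The call over the 3 hairpins was lost when any array but shDnmt3L2 replicate 2 was left out (7 of 8), with adjusted p up to 0.141.

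Tcl1, the AKT coactivator, was higher with every hairpin. Its level was 9.79 and 9.85 under shGFP, 10.14 and 10.10 under shDnmt3L1, 10.44 and 10.39 under shDnmt3L2, and 10.28 and 10.12 under shDnmt3L3. All 6 hairpin arrays were above both shGFP arrays. Tcl1 rose by 0.30 ± 0.08 with shDnmt3L1 (limma, adjusted p = 0.016), 0.60 ± 0.08 with shDnmt3L2 (adjusted p = 0.000909) and 0.38 ± 0.08 with shDnmt3L3 (adjusted p = 0.0047), or to 1.23, 1.51 and 1.30 times the shGFP level. Under median scaling these were 0.14, 0.48 and 0.26, and the first was not called (adjusted p = 0.188). The call with shDnmt3L1 was also lost without shGFP replicate 1 or either shDnmt3L1 array (adjusted p = 0.0775, 0.0788 and 0.0502). A second Tcl1 probe rose over the 3 hairpins by 0.34 ± 0.07 (adjusted p = 0.00537), with 0.57 ± 0.09 in shDnmt3L2 and 0.29 ± 0.09 in shDnmt3L3 called, and 0.15 ± 0.09 in shDnmt3L1 not (adjusted p = 0.201).

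Nr5a2, the nuclear receptor also known as LRH-1, was lower with shDnmt3L1. Its level was 8.48 and 8.54 under shGFP, 8.26 and 8.16 under shDnmt3L1, 8.63 and 8.51 under shDnmt3L2, and 8.65 and 8.59 under shDnmt3L3. Both shDnmt3L1 arrays lay under all others, and the shDnmt3L2 arrays overlapped both shGFP and shDnmt3L3. Nr5a2 fell by 0.30 ± 0.08 with shDnmt3L1 (limma, adjusted p = 0.0167), and 0.06 ± 0.08 with shDnmt3L2 and 0.12 ± 0.08 with shDnmt3L3 were not called (adjusted p = 0.574 and 0.273). The call was lost without shDnmt3L1 replicate 2 or shGFP replicate 2 (adjusted p = 0.101 and 0.0801). A second Nr5a2 probe gave -0.36 ± 0.14 with shDnmt3L1, not called (adjusted p = 0.0667), and the last was detected on 1 array.

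Nr0b1, the receptor DAX1 that is usually active in mouse stem cells, was detected on shGFP replicate 1 alone. Its detection p there was 0.047, just under the threshold of 0.05. Its normalized log2 values ran from 4.32 to 4.88, at the level of probes not above the negative controls. On the other 7 arrays it was not above background, so no change was tested.

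Taking the hairpins singly, 4 of the 9 genes were called with shDnmt3L1 (2 higher, 2 lower), against 47.9% of all genes (25.2% higher, 22.6% lower). With shDnmt3L2 6 were called (5 higher, 1 lower), against 39.2% of all genes (20.8% higher, 18.3% lower). With shDnmt3L3 3 were called (1 higher, 2 lower), against 52.2% of all genes (27.1% higher, 25.1% lower). Median changes of the 9 genes were 0.18, 0.35 and -0.05, against 0.01, 0.00 and 0.00 over all genes. Under median scaling the counts became 2, 3 and 6, so the number of higher genes with shDnmt3L2 depends on that choice. Dppa2 and Tcl1 were called with all 3 hairpins, as were 23.7% of all genes, Dppa5a with none, and no member was called in opposite directions by different hairpins (3.51% of all genes were). That holds under the main settings. Utf1 with shDnmt3L2 (0.21) and Lin28a with shDnmt3L3 (-0.25) missed the threshold there and passed it under some alternatives.

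**Figure D2:**
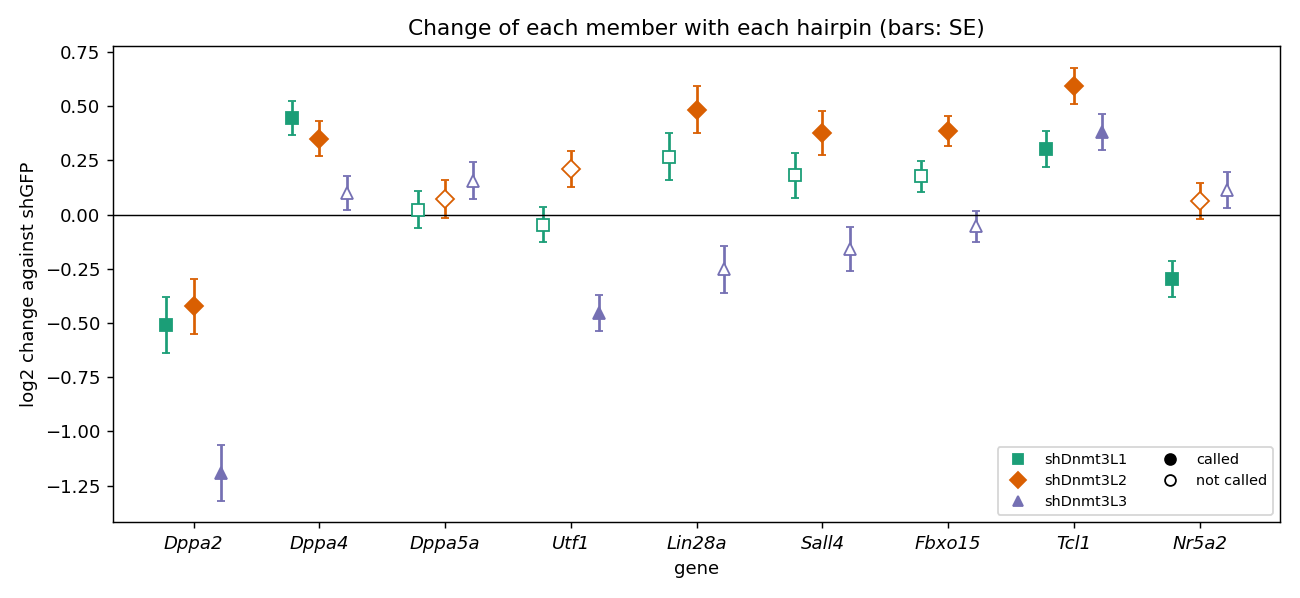
Log2 change against shGFP (vertical axis) of each tested gene (horizontal axis) with each of the 3 hairpins, with bars of 1 SE, filled where called and open where not. Dppa2 lies at -0.51, -0.42 and -1.19 and Tcl1 at 0.30, 0.60 and 0.38, while Utf1, Lin28a, Sall4 and Fbxo15 lie higher with shDnmt3L2 than with shDnmt3L3; under median scaling Dppa4 with shDnmt3L3 and Sall4 and Fbxo15 with shDnmt3L1 change sign.

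Whether the hairpins differ from each other was tested directly, without the shGFP arrays entering the difference. The F test among the 3 hairpin groups called 8 of the 9 genes, all but Dppa5a, where 44.8% of all genes were called. The call of Tcl1 (adjusted p = 0.042) was lost in 7 of the 8 fits that left out 1 array, that of Dppa4 (0.0176) without shDnmt3L1 replicate 1 or either shDnmt3L3 array, and that of Nr5a2 (0.00683) without shDnmt3L1 replicate 2. Between shDnmt3L3 and shDnmt3L2, 6 genes differed and all were lower with shDnmt3L3, against 42.2% of all genes called (21.8% higher, 20.4% lower). These were Lin28a (-0.74 ± 0.11, limma, adjusted p = 0.000905), Dppa2 (-0.77 ± 0.13, adjusted p = 0.00172), Utf1 (-0.66 ± 0.08, adjusted p = 0.000397), Sall4 (-0.53 ± 0.10, adjusted p = 0.00341), Fbxo15 (-0.44 ± 0.07, adjusted p = 0.00146) and Dppa4 (-0.25 ± 0.08, adjusted p = 0.0337). The median difference over the 9 genes was -0.44, against 0.01 over all genes. The same 6 genes were called lower under median scaling and in the authors' processed table, and 5 or 6 were called when 1 array was left out, with Dppa4 the one lost. With the mean of a gene's detected probes Dppa4 was not called (-0.18, adjusted p = 0.105) and Dppa2 was called at -0.36 (adjusted p = 0.0306). Tcl1, Nr5a2 and Dppa5a were not called, at -0.21 ± 0.08, 0.05 ± 0.08 and 0.08 ± 0.09 (adjusted p = 0.0673, 0.649 and 0.469).

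Between shDnmt3L3 and shDnmt3L1, 7 genes differed, 6 lower with shDnmt3L3 and Nr5a2 higher, against 35.3% of all genes (17.7% higher, 17.6% lower). Nr5a2 was 0.41 ± 0.08 higher (limma, adjusted p = 0.00509) and Lin28a 0.52 ± 0.11 lower, at a log2 difference of -0.52 (adjusted p = 0.00627). The others were Dppa2 (-0.68), Utf1 (-0.41), Dppa4 (-0.35), Sall4 (-0.34) and Fbxo15 (-0.23), and Sall4 and Fbxo15 lost the call under median scaling. With the mean of a gene's detected probes Dppa2 was -0.29 (adjusted p = 0.0723) and Dppa4 -0.22 (adjusted p = 0.0675), neither called. With 1 array left out 4 to 7 genes were called. Between shDnmt3L2 and shDnmt3L1 only Nr5a2 was called, 0.36 ± 0.08 higher with shDnmt3L2 (adjusted p = 0.0344), against 8.05% of all genes (3.27% higher, 4.78% lower), and leaving out any hairpin array removed that call. Across the 9 genes, shDnmt3L3 was the lowest of the 3 hairpins in 6 (39.2% of all genes) and shDnmt3L2 the highest in 6 (32.5% of all genes).

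**Figure D3:**
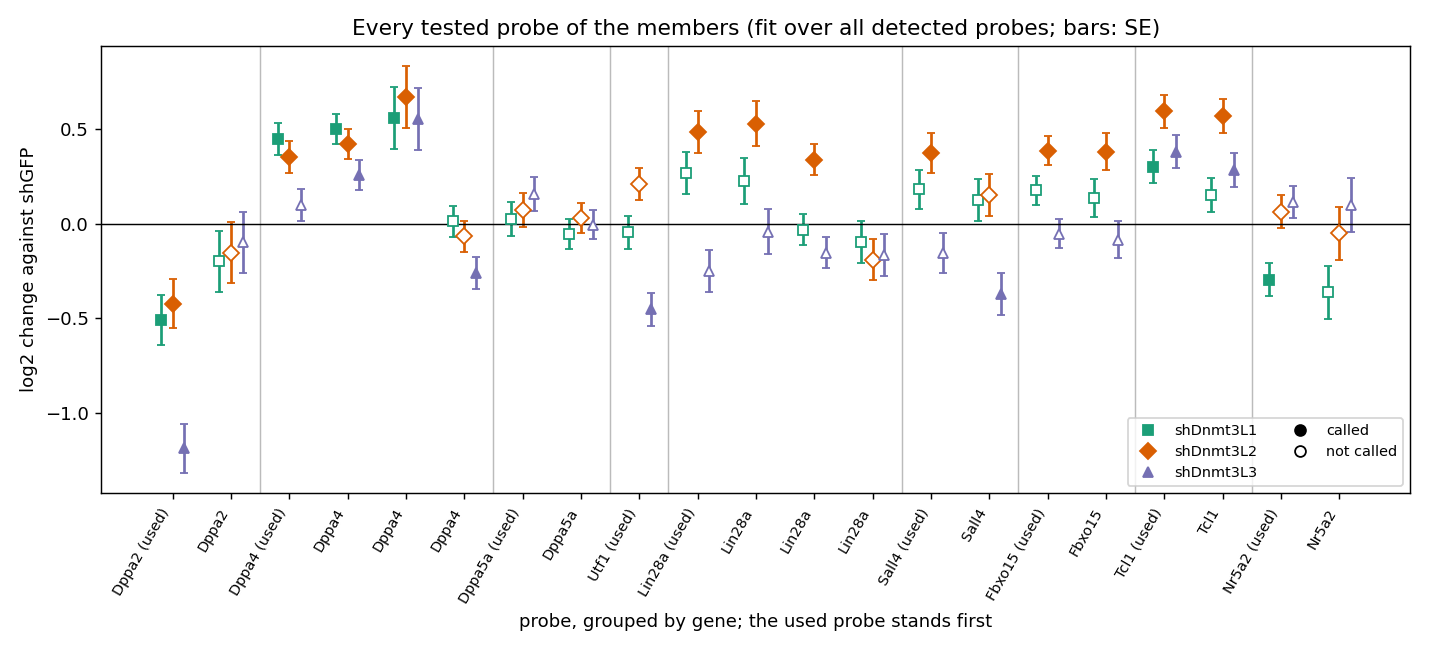
Log2 change against shGFP (vertical axis) of every tested probe, grouped by gene on the horizontal axis with the probe used for the gene first, for the 3 hairpins, with bars of 1 SE and filled symbols where called. The probes of Tcl1 and of Fbxo15 lie close to each other, while 1 of the 4 Dppa4 probes lies at -0.26 with shDnmt3L3 where the others lie at 0.10, 0.26 and 0.56.

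Of the 9 genes, 6 (Dppa4, Dppa5a, Utf1, Sall4, Fbxo15 and Tcl1) lie in the brightest of 5 equal bins of all genes by mean level. Median scaling moved that bin by -0.15 on the log2 scale in the comparison of all hairpins with shGFP, and by -0.13 to -0.18 with single hairpins, while the middle bin moved by 0.01. The dimmest bin moved by -0.09 over the hairpins, and the second brightest, which holds Dppa2, Lin28a and Nr5a2, by -0.05. Members of the brightest bin did not move alike: Dppa5a stayed at 0.08, while Dppa4 went from 0.30 to -0.01 and Fbxo15 from 0.17 to -0.12, and what sets this apart was not tested. It moved the median of all genes from 0.01 to -0.06. Of all genes called over the 3 hairpins, 52.6% were higher under quantile normalization and 42.1% under median scaling. Dppa2, which was -0.71, became -0.76 (adjusted p = 0.000395), Tcl1 0.29 (adjusted p = 0.00667), and Utf1 -0.22 and called (adjusted p = 0.0271). Differences between hairpin groups moved less, as with Lin28a between shDnmt3L3 and shDnmt3L2, at -0.74 and -0.73.

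**Figure D4:**
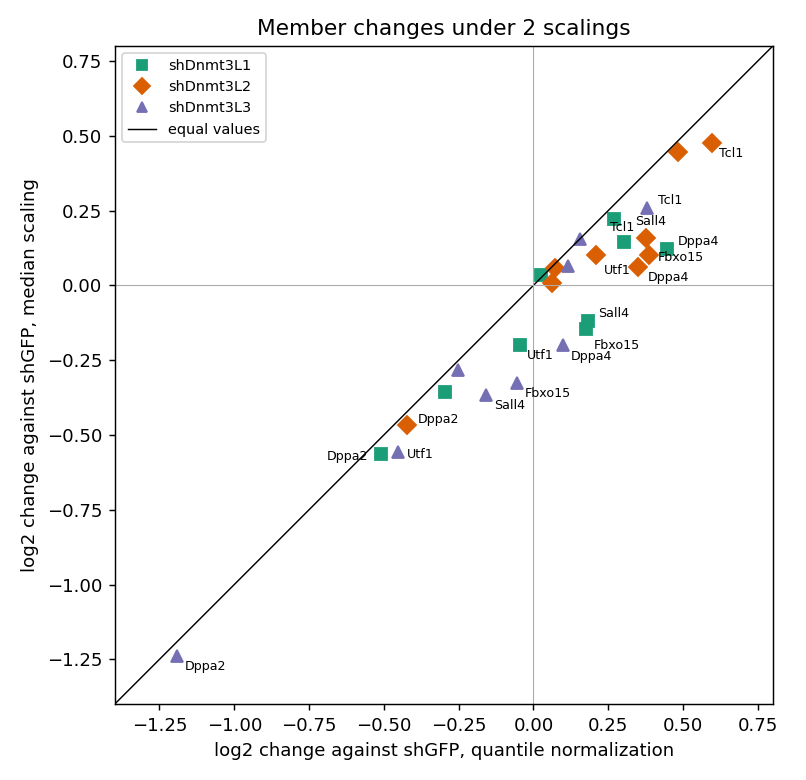
Log2 change against shGFP of the 9 genes with each hairpin, under quantile normalization (horizontal axis) and under median scaling (vertical axis), 1 point per gene and hairpin, with a line of equal values. Dppa2 with shDnmt3L3 lies near the line at -1.19 and -1.24, whereas Dppa4, Fbxo15 and Sall4 lie below it and some of their points change sign.

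Genes whose hairpin pattern was closest to that of a member were found by the root mean square difference of the 3 log2 changes, over 3 hairpin groups, for the 2 members changed at least 1.5-fold by a hairpin. For Dppa2 the closest were Armc8 (0.03), Ifi27 (0.05) and Taf11 (0.05), and 90 of the other 10929 genes lay within 0.2. For Tcl1 they were Dis3l (0.01), Mau2 (0.02) and Usp19 (0.03), and 612 genes lay within 0.2. Among the members themselves, Sall4 and Fbxo15 were closest (0.06), followed by Lin28a and Sall4 (0.10) and Lin28a and Fbxo15 (0.14). The distances share the shGFP arrays and are descriptions only.

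Around DPPA2 and DPPA4, a list of 20 partner and target genes had 12 tested, of which 6 rose and 2 fell over the 3 hairpins, with a median of 0.13 against 0.01 for all genes. Over all genes, 27.5% were called higher and 24.7% lower in this comparison. Under median scaling 5 genes of the list were higher and 4 lower. The 4 with the largest change were all genes of the two-cell-like state: Zscan4c rose by 1.36 ± 0.08, Tmem92 by 1.31 ± 0.10, Tcstv1 by 0.85 ± 0.09 and Tcstv3 by 0.83 ± 0.06 (limma, adjusted p = 7.96e-06, 2.35e-05, 7.81e-05 and 1.58e-05). Zscan4c and the Tcstv genes belong to families of near-identical copies that probes may share, and Tmem92 was detected on 1 of the 2 shGFP arrays. All 4 were lower with shDnmt3L3 than with shDnmt3L1, by log2 differences of -0.85 for Zscan4c, -0.80 for Tmem92, -0.97 for Tcstv1 and -0.92 for Tcstv3 (adjusted p = 0.00033, 0.0015, 0.000215 and 4.16e-05). Against shGFP, the shDnmt3L3 group still had Zscan4c (0.87), Tmem92 (0.81) and Tcstv3 (0.22) called higher, and Tcstv1 (0.26) was not called (adjusted p = 0.0641).

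Around LIN28A, 13 of 19 genes of the let-7 pathway were tested, and 3 rose and 3 fell over the hairpins (median -0.14). With shDnmt3L3, 3 rose and 7 fell, with a median of -0.38 against 0.00 for all genes, and with shDnmt3L2 5 rose and 1 fell. Of all genes, 27.5% were called higher and 24.7% lower over the hairpins, 27.1% and 25.1% with shDnmt3L3, and 20.8% and 18.3% with shDnmt3L2. Under median scaling 3 genes of the pathway were higher and 5 lower over the hairpins, 2 and 7 with shDnmt3L3, and 4 and 2 with shDnmt3L2. Dis3l2, the nuclease that degrades uridylated let-7 precursors, rose by 0.51 ± 0.06 (limma, adjusted p = 0.000273), and Tut7, an enzyme that adds the uridines, by 0.29 ± 0.07 (adjusted p = 0.0073). Igf2bp3, a let-7 target, rose by 0.30 ± 0.06 (adjusted p = 0.004), and Dgcr8, of the microprocessor complex, fell by 0.40 ± 0.12 (adjusted p = 0.024). Dis3l2 and Tut7 were called higher with each hairpin. Igf2bp3 was not called with shDnmt3L3 (0.11), nor Dgcr8 with shDnmt3L2 (-0.12). Mature let-7 was not measured.

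Around SALL4, 13 of 15 genes of the SALL family and the NuRD complex were tested, with 3 higher and 3 lower over the hairpins and a median of 0.03. Over all genes, 27.5% were called higher and 24.7% lower, the background for both lists described here. Mta1 and Mta3, subunits of NuRD, rose by 0.71 ± 0.09 and 0.51 ± 0.07 (limma, adjusted p = 0.000234 and 0.000589), Sall1, a paralog of Sall4, rose by 0.56 ± 0.08 (adjusted p = 0.000458), and the histone chaperone Rbbp4 fell by 0.34 ± 0.07 (adjusted p = 0.0027). With shDnmt3L3, Mta3 (0.08) and Rbbp4 (-0.19) were not called, whereas Mta1 and Sall1 were called with each hairpin. Under median scaling 3 genes of this list were higher and 5 lower. Sall2 and Sall3, the other Sall4 paralogs tested, were not called over the 3 hairpins (0.07 and -0.01). Both were called higher with shDnmt3L1 (0.74 and 0.28) and shDnmt3L2 (0.59 and 0.78), and lower with shDnmt3L3 (-1.13 and -1.09). The nuclear receptor list around NR5A2 and NR0B1 had 9 of 17 genes tested, 4 higher and 1 lower (median 0.27), and 4 and 2 under median scaling. Rxra, the common partner of retinoid receptors, rose by 1.19 ± 0.09 (adjusted p = 2.52e-05) and Nr6a1, the germ cell nuclear factor, by 0.34 ± 0.08 (adjusted p = 0.00568). Rara was not detected with shGFP and was at least 1.08-fold higher over the hairpins (adjusted p = 0.000746), and Rxrg was not detected with shDnmt3L3 and was at least 1.20-fold lower (adjusted p = 0.000751). Rxra and Rara were called with each hairpin, whereas Nr6a1 was not called with shDnmt3L3 (0.09), nor Rxrg with shDnmt3L1 (-0.09).

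Around TCL1, 11 of 20 genes of its family and of AKT signalling were tested, with 3 higher and 1 lower (median -0.03) and, under median scaling, 2 higher and 3 lower. The kinase gene Mtor rose by 0.62 ± 0.08 (limma, adjusted p = 0.000414) and the PI3-kinase subunit Pik3ca by 0.45 ± 0.09 (adjusted p = 0.00395), while Pik3cb fell by 0.36 ± 0.09 (adjusted p = 0.00859). Tsc2, an inhibitor upstream of mTOR, rose by 0.25 ± 0.06 (adjusted p = 0.00787), a call lost under median scaling (0.15, adjusted p = 0.0693). Mtor (0.28) and Tsc2 (0.12) were not called with shDnmt3L3, nor Pik3cb with shDnmt3L2 (-0.25), while Pik3ca was called with each hairpin. Around FBXO15, 11 of 14 genes of the SCF ligase and F-box list were tested, 3 higher and 4 lower (median -0.18), and 2 higher and 6 lower with shDnmt3L3. Under median scaling these counts were 3 and 6, and 2 and 8. As background for the TCL1 and FBXO15 lists, 27.5% of all genes were called higher and 24.7% lower over the hairpins. With shDnmt3L3 the shares were 27.1% and 25.1%. The F-box genes Btrc and Fbxo21 rose by 0.55 ± 0.08 and 0.53 ± 0.06 (adjusted p = 0.00076 and 0.000179) and Fbxo7 fell by 0.50 ± 0.08 (adjusted p = 0.000769). Ncl, the nucleolar protein nucleolin, fell by 1.29 ± 0.07 (adjusted p = 5.94e-06), with -1.91 for shDnmt3L3.

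Of 28 other accessory genes of stem cells 19 were tested, 5 higher and 7 lower over the hairpins (median 0.06), and 4 higher and 11 lower with shDnmt3L3 (median -0.24). Under median scaling 4 were higher and 8 lower over the hairpins (median -0.09), and 3 and 11 with shDnmt3L3. Of all genes, 27.5% were called higher and 24.7% lower over the hairpins, and 27.1% and 25.1% with shDnmt3L3. Khdc3, a cytoplasmic protein of the egg and early embryo, fell by 1.15 ± 0.06 (limma, adjusted p = 5.15e-06), mostly through shDnmt3L1 at -2.30. Ooep, of the same maternal complex, rose by 0.69 ± 0.08 (adjusted p = 0.000147), Mycl by 1.05 ± 0.06 (adjusted p = 8.89e-06) and the growth factor Fgf4 by 0.67 ± 0.08 (adjusted p = 0.000267). The 12 core and naive factors, Nr5a2 among them, had 3 higher and 1 lower with a median of -0.01, but 1 higher and 7 lower under median scaling. With single hairpins 1 was higher and 6 lower (shDnmt3L1), 4 and 1 (shDnmt3L2), and 4 and 2 (shDnmt3L3). The shares of all genes were 25.2% and 22.6%, 20.8% and 18.3%, and 27.1% and 25.1%. Over the 3 hairpins, Klf2 rose by 0.42 ± 0.07 (adjusted p = 0.00129; 0.14 and not called under median scaling), Prdm14 by 0.23 ± 0.07 (adjusted p = 0.0213) and Tbx3 by 0.20 ± 0.07 (adjusted p = 0.0342; 0.14 and not called), and Klf5 fell by 0.36 ± 0.06 (adjusted p = 0.00112). The hairpins differed within these averages: Tbx3 was called at -0.38 with shDnmt3L1, and at 0.56 and 0.41 with shDnmt3L2 and shDnmt3L3. Prdm14 was called with shDnmt3L2 alone (0.48). Klf5 was not called with shDnmt3L2 (0.05).

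Markers of other cell states moved with the hairpins beside these genes. The summed linear level of 7 primed epiblast markers was 5890 to 6328 with shGFP, 11120 to 11250 with shDnmt3L1, 9759 to 10310 with shDnmt3L2 and 3294 to 3301 with shDnmt3L3, where Fgf5, Lef1 and Wnt8a were not detected. Wnt8a was not detected with shDnmt3L1 either, and on only 2 of the 8 arrays in all. Against the direction of the sum, Lef1 was called lower with shDnmt3L1 and shDnmt3L2 (-0.34 and -0.46), and Cldn6 higher with shDnmt3L3 (0.32). The group with the lowest sum, shDnmt3L3, was also the lowest in Dppa2, Utf1, Lin28a, Sall4 and Fbxo15. Only Dppa2 and Utf1 of these were called against shGFP with that hairpin. Dppa4, Dppa5a and Tcl1 were lowest with shGFP, and Nr5a2 with shDnmt3L1. Among the hairpin groups alone, shDnmt3L3 was the lowest in 6 of the 9 genes, against 39.2% of all genes. Of 8 two-cell-like markers 5 were on the array, and 4 of these were detected. The sum over the 5 was 513 to 546 with shGFP, 1548 to 1597, 1387 to 1423 and 804 to 849 with the 3 hairpins in turn. All 12 endoderm markers were on the array and 5 of them were detected. The sum over the 12, undetected ones included, was 266 to 287 with shGFP and 459 to 560 with the hairpins. Over the hairpins, 4 of the 5 were called higher and Sox7 lower (-0.22), where 27.5% of all genes were called higher and 24.7% lower. Only Col4a1 was called higher with each hairpin. Gata4, Gata6, Sox17 and Foxa2 were not detected on any array. All 11 fibroblast markers were on the array and 4 of them were detected. The sum over the 11, undetected ones included, was 267 to 277 with shGFP and 449 to 747 with the hairpins. Acta2 and Thy1 were called higher over the hairpins (1.68 and 0.97), and Twist1 (-0.02) and Pdgfrb (0.14) were not called. Col1a1, Col1a2, Col3a1, Dcn and Lum were not detected on any array. The sum of the 4 stem cell markers was 11330 to 11520 with shGFP, 10930 to 11060 with shDnmt3L1, 11950 to 12060 with shDnmt3L2 and 10440 to 10790 with shDnmt3L3. The part of these cell states in the changes of the 9 genes was not tested.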

How the data were processed

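The authors deposited a table of non-normalized intensity per probe and array (linear Cy3 signal, no background subtraction), for which the submitters' processing notes name GenomeStudio 2011.1. Each deposited intensity is followed by an unnamed p-value, read as its detection p-value. A deposited table of processed intensity served as an alternative. With limma 3.58.1 (R 4.3.3), background was estimated from the detection p-values, an offset of 16 added, arrays quantile-normalized and log2 taken. A probe had to be detected (p under 0.05) on 2 or more arrays, and the brightest such probe stood for its gene. Genes were named by the platform annotation and the RefSeq gene table of GRCm38.p6 (34807 probes updated or kept through the gene ID, of 34885 with 1 gene). All 8 arrays entered 1 model with 4 group means (4 residual and 4.64 prior degrees of freedom). Tests were two-sided. In a simulation of the 3-hairpin comparison on 10930 genes, 97.0% of genes changed by 0.5 and 100% of those changed by 1 (log2) were called, with 9 false calls. The simulation drew independent noise with the spread between duplicates and changed 100 genes at each size. In the data 52.2% of genes were called and arrays of a group may be correlated, so these rates need not hold there. Members, lists and the rule for naming genes (from each list, the 4 called genes with the largest change over the hairpins) were chosen with earlier results of these data known. Alternatives changed the background correction, offset, scaling, probe filter, probe summary, variance prior, blocks and arrays used. Precision is limited by 2 arrays a group.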

Additional observations from a re-analysis of the deposited data

Results flagged for a closer look

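Given here are the 5 genes whose values against shGFP had opposite signs with 2 hairpins and whose difference between those hairpins passed the test. In all, 6 of the 9 genes were called between shDnmt3L3 and shDnmt3L2 (42.2% of all genes) and 7 between shDnmt3L3 and shDnmt3L1 (35.3% of all genes). Between shDnmt3L3 and shDnmt3L2 the genes with opposite signs were Utf1 (adjusted p = 0.000397), Lin28a (adjusted p = 0.000905), Fbxo15 (adjusted p = 0.00146) and Sall4 (adjusted p = 0.00341), each with values of opposite sign against shGFP, from limma's fit across all genes. Of the 8 single-hairpin values behind them, Utf1 with shDnmt3L3 and Lin28a, Sall4 and Fbxo15 with shDnmt3L2 were called. Nr5a2 was lower with shDnmt3L1 and at 0.12 with shDnmt3L3, and that difference also passed (adjusted p = 0.00509). These 5 differences were also called under median scaling, whereas Sall4 and Fbxo15 with shDnmt3L2 against shGFP were not. Dnmt3l differed as well between shDnmt3L3 and shDnmt3L2, by -1.52 on the log2 scale (adjusted p = 9.79e-06), and the part of this difference in the genes above was not tested.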

How the results depend on the processing

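Of 828 values of the 9 genes under alternatives, 740 kept their direction and their side of the threshold, 51 lost a call, 27 gained one and 10 turned sign, none of the 10 called after the turn. Under median scaling these were, over the 3 hairpins, Dppa4 at -0.0057 (adjusted p = 0.948) and Fbxo15 at -0.1239 (adjusted p = 0.107), both called before, and Sall4 at -0.1089, with shDnmt3L1 Sall4 at -0.1182 and Fbxo15 at -0.1474, and with shDnmt3L3 Dppa4 at -0.2008. The others were Dppa5a with shDnmt3L1, at -0.0154 with the mean of its probes and from -0.0022 (without shGFP replicate 1) to 0.0494 with 1 array left out, Nr5a2 over the hairpins at 0.0893 without shDnmt3L1, and Utf1 at 0.0825 without shDnmt3L3. Counts of members called moved with shDnmt3L1 (4) to 7 without background correction, 2 under median scaling and 7 with an intensity trend and robust prior. With shDnmt3L2 (6) the count was 3 under median scaling, and with shDnmt3L3 (3) it was 5 without background correction, 6 under median scaling and 5 with trend and robust prior. Over the 3 hairpins (4) it was 0 with the group as a random block. The cause of these moves was not tested. With 1 array left out the counts ran from 3 to 4 over the hairpins, 1 to 4 with shDnmt3L1 (1 without its replicate 2, 2 without shGFP replicate 2), 3 to 6 with shDnmt3L2 (3 without shGFP replicate 2 or its own replicate 2), 3 in every case with shDnmt3L3, and 6 to 7 among the hairpins (8 with all arrays), where a group left with 1 array is assumed to vary like the others. The mean of a gene's detected probes gave Dppa2 an adjusted p of 0.0694 with shDnmt3L2 and 0.0545 among the hairpins, and Dppa4 0.101 among the hairpins. With the replicate number as a block, 5642 genes in all were called over the hairpins (5707 without), Fbxo15 lost its call (adjusted p = 0.0529) and Tcl1 lost that among the hairpins (adjusted p = 0.0533). Deviations of same-numbered arrays from their group means correlated at -0.0105 to 0.0373, so no shift shared by replicate number was seen across all genes. A batch that crosses these numbers or touches few genes would not show here. Higher genes made up 42.4%, 40.8% and 44.9% of all calls with shDnmt3L1, shDnmt3L2 and shDnmt3L3 under median scaling, against 52.7%, 53.2% and 51.9%. Leaving out whole hairpin groups was chosen after seeing the data: Fbxo15 lost its call without shDnmt3L1 or shDnmt3L2 (adjusted p = 0.0524 and 0.435), Utf1 gained one without shDnmt3L2 (-0.25, adjusted p = 0.017), and Lin28a and Sall4 gained one without shDnmt3L3 (0.38 and 0.28, adjusted p = 0.0101 and 0.0285).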
